A study of Homo sapiens with 6 samples.

Results

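The intestinal lineage transcription factors are 8 genes, CDX1, CDX2, HNF4A, GATA4, GATA6, KLF4, KLF5 and ELF3, of the 24462 gene symbols counted in the bulk RNA sequencing of 2 human colon epithelial cell lines. They are chosen by name, as the DNA-binding proteins that set and keep the identity of the intestinal lining, and the rule uses their names and no measured value. Of the 8 members, KLF5, GATA6 and KLF4 are visible in all 6 libraries, and the other 5 stay under the limit of 3 counts in every library. GATA6 and KLF4 are lower in 1CT-A cells than in 1CT cells, 8.90-fold and 2.74-fold by mean CPM, the counts per 1000000 counts of a library, while the values of KLF5 overlap between both.

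In the gut, CDX1 and CDX2 are homeobox factors that keep the hindgut epithelium intestinal, and HNF4A is a nuclear receptor that turns on the genes of absorptive cells. GATA4 and GATA6 are zinc finger factors of the endoderm, with GATA4 acting in the small intestine and GATA6 along the whole gut including the colon. KLF5 is the Krüppel-like factor of the dividing crypt cells, KLF4 is the one of the differentiated surface and goblet cells, and ELF3 is an epithelial ETS factor of maturing enterocytes.

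The measurement is bulk RNA sequencing of 3 libraries of 1CT, immortalized human colon epithelial cells with wild type APC, and 3 libraries of 1CT-A, the version of that line in which wild type APC is depleted (APC KD in the labels). APC is the tumour suppressor that holds β-catenin, the effector of Wnt signaling, in check. Both lines are untreated, are labelled as epithelial progenitor cells, and grow in the same medium with EGF, hydrocortisone, insulin, transferrin, selenite and 2% serum. The labels give 1 line of each kind and do not say whether the 3 libraries come from separate cultures, so the p-values measure only the spread between these libraries.

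The libraries hold 7788679 to 8452258 counts in 1CT and 11158108 to 12602988 in 1CT-A, a depth that is 1.43 times as large on average. The limit of 3 counts equals 0.355 to 0.385 CPM per 1CT library and 0.238 to 0.269 CPM per 1CT-A library, and it covers counting error only. As a measure of stray reads, 378 olfactory receptor genes sum to 3.38 to 4.50 CPM per 1CT library and 1.40 to 1.67 CPM per 1CT-A library. APC itself is at 49.3, 43.8 and 46.6 CPM in 1CT and at 31.5, 30.0 and 34.4 CPM in 1CT-A. All 3 depleted libraries lie below all 3 wild type libraries, with a log2 fold change of -0.58 ± 0.09 (SE; adjusted p = 1.76e-04, quasi-likelihood test of edgeR, adjusted after Benjamini-Hochberg over the 12514 genes tested). That test and adjustment stand behind every adjusted p given here, a fold change is 1CT-A against 1CT, and a gene is called at an adjusted p under 0.05.

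**Figure D1:**
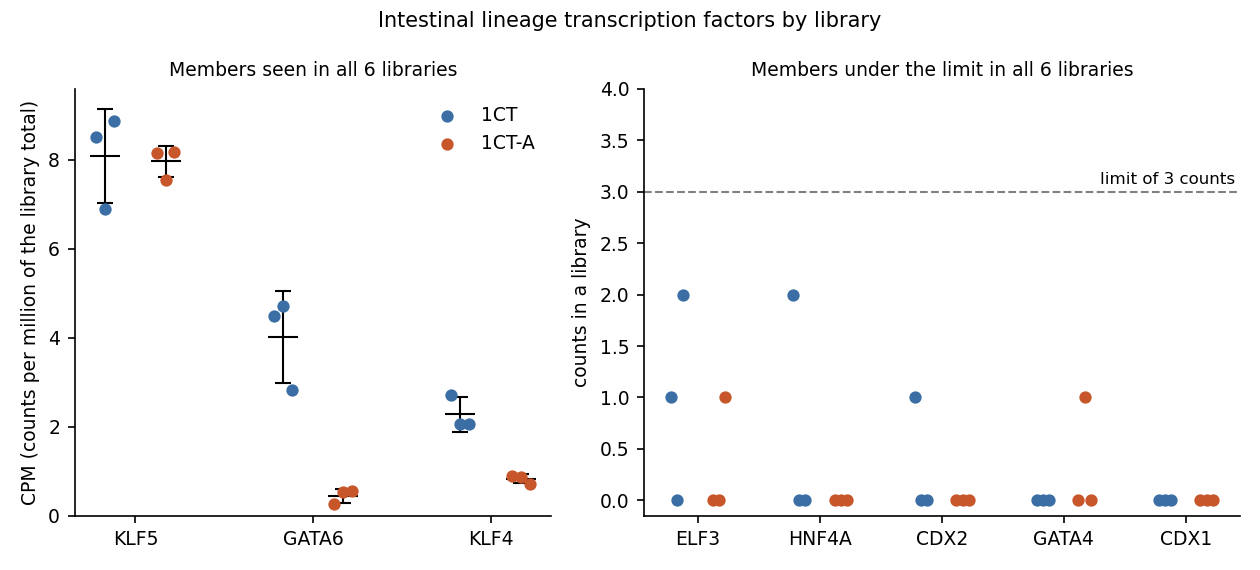
Levels of the 8 members in single libraries of 1CT (blue) and 1CT-A (orange). The left panel gives CPM of KLF5, GATA6 and KLF4 with the mean and SD of 3 libraries as bars, and the right panel gives raw counts of the other 5 members under the dashed limit of 3 counts. GATA6 and KLF4 do not overlap between the lines, and KLF5 does. The share of all genes without overlap was not counted.

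The comparison of both lines asks how depletion of APC goes along with the levels of these factors. GATA6 has 38, 39 and 22 counts in the 3 1CT libraries, or 4.50, 4.71 and 2.82 CPM, and in the 1CT-A libraries it has 3, 6 and 7 counts, or 0.269, 0.527 and 0.555 CPM. Every 1CT-A library is below every 1CT library, and 1 of them sits right at the limit. Its mean is 4.01 ± 1.03 CPM in wild type and 0.450 ± 0.158 CPM in depleted cells (SD, n = 3 each), and the log2 fold change is -3.15 ± 0.37 (SE; 95% interval -3.94 to -2.36; adjusted p = 1.28e-05, edgeR). A two-sided exact permutation test of the 6 CPM values gives p = 0.1, the smallest value that 3 libraries against 3 allow.

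KLF4 has 23, 17 and 16 counts in 1CT, or 2.72, 2.05 and 2.05 CPM, and 10, 10 and 9 counts in 1CT-A, or 0.896, 0.878 and 0.714 CPM. Here too both groups are apart, with the highest 1CT-A library well under the lowest 1CT library. Its mean is 2.28 ± 0.386 CPM in wild type and 0.829 ± 0.1002 CPM in depleted cells (SD, n = 3 each), with a fitted log2 fold change of -1.49 ± 0.32 (SE; 95% interval -2.19 to -0.79; adjusted p = 0.00189, edgeR), and the exact permutation test again gives p = 0.1.

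KLF5, the crypt factor of the same family, is the most abundant member by CPM. It has 72, 57 and 69 counts in 1CT, or 8.52, 6.88 and 8.86 CPM, and 91, 86 and 103 counts in 1CT-A, or 8.16, 7.55 and 8.17 CPM. The 3 values of 1CT-A lie inside the range of 1CT. The means are 8.09 ± 1.06 and 7.96 ± 0.356 CPM (SD, n = 3 each), and the log2 fold change is -0.06 ± 0.16 (SE; adjusted p = 0.777, edgeR; exact permutation p = 0.8). Its 95% interval, -0.41 to 0.29 on the log2 scale, spans folds from 0.753 to 1.22.

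GATA6 and KLF4 reach the filter on low values, about 1.02 CPM in 3 libraries, through the 1CT libraries alone, and neither has a 1CT-A library above it. A gene of this kind had to differ to be tested, so the 2 members called lower of the 3 tested are given as a description. Of all 12514 genes tested, 51.0% are called, 25.0% higher and 26.0% lower in 1CT-A. The share of all genes whose groups do not overlap was not counted, so non-overlap of single genes is a description too. Among the 2533 genes with a mean of 1 to 5 CPM, the range that holds GATA6 and KLF4, 31.5% are called lower and 9.91% higher. The summed olfactory receptor genes are lower in 1CT-A too (above), and the part of such a shift at low levels in the 2 calls was not tested.

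GATA6 and KLF4 both pass a fold of at least 2 with an unadjusted p under 0.01 in the edgeR fit, as do 9.6% of all tested genes in the lower direction. With no filter on low values GATA6 keeps a log2 fold change of -3.10 (adjusted p = 6.05e-14, edgeR) and KLF4 one of -1.44 (adjusted p = 0.00154, edgeR). These are bulk libraries, in which fewer cells with a factor and less of its RNA in each cell cannot be told apart.

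**Figure D2:**
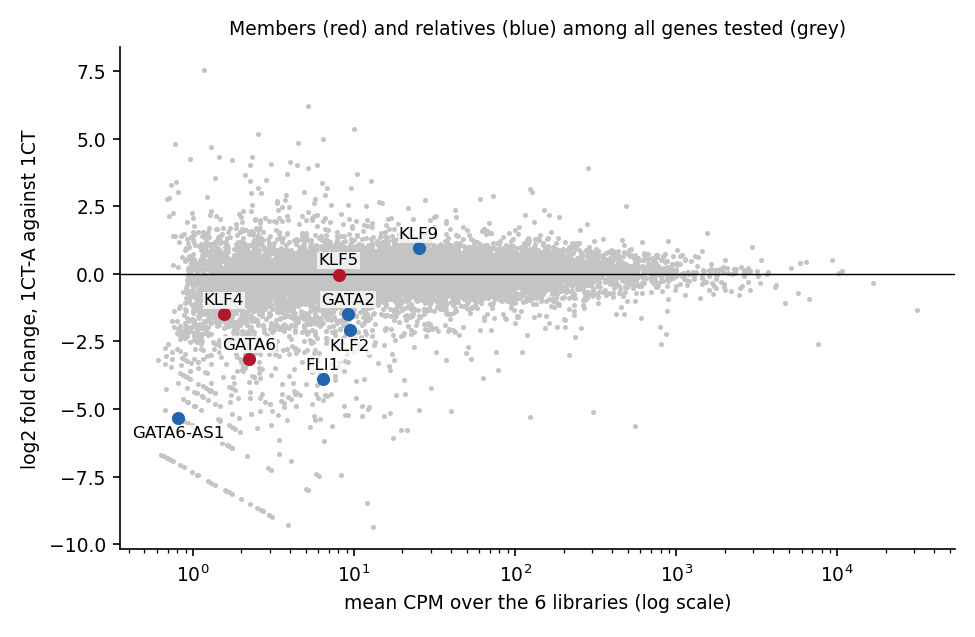
Each point is 1 of the 12514 tested genes, with its mean CPM over the 6 libraries on a log axis and its log2 fold change (1CT-A against 1CT). GATA6 (-3.15) and KLF4 (-1.49) lie in the lower part of the cloud at low CPM, KLF5 (-0.06) lies on the zero line, and blue points are the named relatives KLF2, KLF9, GATA2 and FLI1 with GATA6-AS1.

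The order of the members differs between the lines. CPM here is read per gene and is not divided by length, because a 3′ library counts about 1 read per transcript end. In 1CT the order is KLF5, GATA6 and KLF4, and the 3 ranges do not overlap. In 1CT-A the order is KLF5, KLF4 and GATA6, again without overlap. The places of KLF4 and GATA6 there rest on 10, 10 and 9 against 3, 6 and 7 counts, and their order was not tested. KLF5 has 3.13, 3.35 and 4.31 times the counts of KLF4 in the 1CT libraries and 9.10, 8.60 and 11.4 times in the 1CT-A libraries. GATA6 goes from 1.65, 2.29 and 1.38 times KLF4 to 0.300, 0.600 and 0.778 times. All 8 members together sum to 13.6 to 16.2 CPM per 1CT library and 9.04 to 9.52 CPM per 1CT-A library.

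The other 5 members form a separate layer of near silence. ELF3 has 1, 0 and 2 counts in 1CT and 0, 0 and 1 in 1CT-A. HNF4A has 2 counts in 1 library of 1CT, CDX2 has 1 count in 1 library of 1CT, GATA4 has 1 count in 1 library of 1CT-A, and CDX1 has none. The levels of these 5 genes are not visible at this depth and cannot be ordered or compared between the lines. A count of 0 allows a level of up to 0.355 to 0.385 CPM in a 1CT library and 0.238 to 0.269 CPM in a 1CT-A library, below KLF4 in every library. The CDX pair and HNF4A, the factors most closely tied to intestinal identity, thus have no visible transcript in the line with wild type APC or in the depleted one.

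On the GRCh38 assembly, in the GENCODE annotation, GATA6 lies at chr18:22169589-22202528 on the plus strand, KLF4 at chr9:107484852-107490482 on the minus strand and KLF5 at chr13:73054976-73077541 on the plus strand. The 3′ end of GATA6, where its reads are taken, is covered by an unnamed lncRNA of the opposite strand (ENSG00000266283, chr18:22200619-22205229). No other annotated gene covers the 3′ end of KLF4 or KLF5. The strand setting of the counting is not given in the sources used here, so reads of GATA6 and of that lncRNA cannot be told apart. The start of GATA6 is shared with GATA6-AS1, a lncRNA of the opposite strand at chr18:22164886-22169878 that overlaps 290 bases of the gene, far from the 3′ end of either.

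GATA6-AS1 has 14, 13 and 12 counts in 1CT, or 1.66, 1.57 and 1.54 CPM, and 0, 1 and 0 counts in 1CT-A. The 1CT libraries are alike and all above the 1CT-A libraries, in which the lncRNA is not visible. From the pooled 39 counts against 1, the ratio of 1CT to 1CT-A is 55.9 with an exact 95% interval of 9.46 to 2264 that covers counting error only. The gene is called lower in the fit (adjusted p = 2.86e-05, edgeR), but like GATA6 and KLF4 it passed the filter through the 1CT libraries alone, so the call is a description too. In 1CT, GATA6 has 2.71, 3.0 and 1.83 times the counts of GATA6-AS1.

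The 250 bases before the start of a gene are shown for the 3 visible members, for GATA6-AS1, and for CDX2 as an example of a member without a visible transcript. They are RefSeq windows on GRCh38.p14, read 5′ to 3′ along each gene's own strand, and capitals mark CpG, the dinucleotide that DNA methylation acts on. The RefSeq starts of GATA6 and GATA6-AS1 lie 621 bases apart and point away from each other, whereas the GENCODE extents of both genes overlap. KLF5 has 2 windows in RefSeq, and the second, CpG-rich one is printed.
GATA6, chr18:22169339-22169588, plus strand: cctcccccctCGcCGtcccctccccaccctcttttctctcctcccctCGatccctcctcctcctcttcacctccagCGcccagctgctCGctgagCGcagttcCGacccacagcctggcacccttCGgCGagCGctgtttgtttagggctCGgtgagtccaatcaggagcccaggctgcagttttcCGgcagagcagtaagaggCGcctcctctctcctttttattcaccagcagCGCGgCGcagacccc
GATA6-AS1, chr18:22168969-22169218, minus strand: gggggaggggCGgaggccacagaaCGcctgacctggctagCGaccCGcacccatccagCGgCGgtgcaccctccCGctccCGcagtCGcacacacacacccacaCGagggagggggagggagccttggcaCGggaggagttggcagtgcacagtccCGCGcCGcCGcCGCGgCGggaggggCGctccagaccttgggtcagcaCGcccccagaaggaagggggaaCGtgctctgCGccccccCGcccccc
KLF4, chr9:107489770-107490019, minus strand: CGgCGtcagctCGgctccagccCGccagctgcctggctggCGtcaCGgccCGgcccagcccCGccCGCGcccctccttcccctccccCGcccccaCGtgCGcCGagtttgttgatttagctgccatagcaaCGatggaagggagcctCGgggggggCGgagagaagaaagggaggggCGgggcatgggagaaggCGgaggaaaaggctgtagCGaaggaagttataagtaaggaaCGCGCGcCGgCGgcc
KLF5, chr13:73058755-73059004, plus strand: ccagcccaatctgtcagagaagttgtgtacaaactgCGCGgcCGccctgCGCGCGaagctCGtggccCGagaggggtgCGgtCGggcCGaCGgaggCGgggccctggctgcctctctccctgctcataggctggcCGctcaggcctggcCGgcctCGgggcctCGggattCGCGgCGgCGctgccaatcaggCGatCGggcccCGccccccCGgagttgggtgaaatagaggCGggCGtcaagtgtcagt
CDX2, chr13:27969316-27969565, minus strand: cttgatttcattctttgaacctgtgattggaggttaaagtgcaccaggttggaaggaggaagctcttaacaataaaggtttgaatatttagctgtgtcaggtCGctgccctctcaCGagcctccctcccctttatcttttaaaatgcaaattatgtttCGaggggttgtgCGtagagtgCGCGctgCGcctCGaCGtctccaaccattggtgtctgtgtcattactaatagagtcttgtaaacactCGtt

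The set of RefSeq windows used here holds 6 of the 8 members, and CDX1 and GATA4 were not looked at. The window of GATA6 has 16 CpG and 64.4% G and C, more CpG than 59.0% of the 35116 windows of this set, whose median is 11. That of GATA6-AS1 has 23 CpG and that of KLF4 has 25 CpG, more than 74.2% and 78.4% of windows. KLF5 has 27 CpG in the printed window and 3 in its first window (chr13:73054726-73054975), and 3′ reads do not show which start is used. CDX2 has 10 CpG, ELF3 has 4 and both windows of HNF4A have 8. The windows of CDX2, ELF3 and HNF4A are thus lower in CpG than those of GATA6, KLF4 and the second of KLF5, but higher than the first of KLF5. This is a description of 6 genes.

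Short motifs do not divide the members in the same way. CACCC, the core letters that Krüppel-like factors bind, was searched on both strands and is in 54.7% of all windows. It is found 2 times in GATA6, 3 times in GATA6-AS1, not in KLF4 and 2 times in the printed window of KLF5, with 1 more in its first window. Among the members without a visible transcript it is found 1 time in ELF3, 2 and 4 times in the windows of HNF4A and not in CDX2. AGATAA, letters that GATA factors bind, is in 9.17% of all windows and among the members in those of CDX2 and HNF4A, the latter 26 bases before the start. CTTTGAT or CTTTGTT, letters that the TCF factors of Wnt signaling bind, are in 6.60% of all windows and in none of the members' windows. TATAAA is in 10.7% of all windows, and ELF3 carries it 34 bases before its start, as does the first window of KLF5 at 194 bases. None of these motifs contains another, and a match is no more than these letters in this window.

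KLF4 and KLF5 belong to a family of zinc finger factors that bind the same GC-rich letters, and 15 other members of it are counted. Of these, 11 are visible in every 1CT library and 12 in every 1CT-A library, and 11 are tested. KLF9 and KLF7 are called higher, KLF2, KLF6 and KLF12 are called lower, and 6 are not called. The share called is 45.5%, beside 51.0% of all tested genes. The median log2 fold change of the 11 is -0.16, against -0.0067 for all tested genes. KLF2, a factor of quiescence in endothelium and lymphocytes, falls from 15.1 ± 2.40 to 3.64 ± 0.905 CPM (SD, n = 3 each; log2 fold change -2.09 ± 0.20 SE, adjusted p = 1.91e-06, edgeR). KLF9, which is induced by glucocorticoid, rises from 16.8 ± 2.83 to 33.6 ± 2.46 CPM (SD, n = 3 each; log2 fold change 0.96 ± 0.12 SE, adjusted p = 3.29e-05, edgeR).

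KLF6, a broadly expressed factor and the most abundant of the family by CPM, changes little in size, from 277 to 233 CPM on average (log2 fold change -0.29, adjusted p = 0.00206, edgeR). KLF7 goes from 36.6 to 47.8 CPM (log2 fold change 0.34, adjusted p = 0.00591, edgeR). KLF12, a repressor, is at 10.5 and 7.93 CPM with groups that overlap (log2 fold change -0.45, adjusted p = 0.0391, edgeR). Its call is lost without 1CT replicate 2 or 3 or without 1CT-A replicate 1 or 2, where the adjusted p reaches 0.148, and also under DESeq2, with library size only and with no filter (adjusted p up to 0.0846). Among the tested Krüppel-like factors, KLF4 and KLF2 are the pair that fall more than 2-fold.

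**Figure D3:**
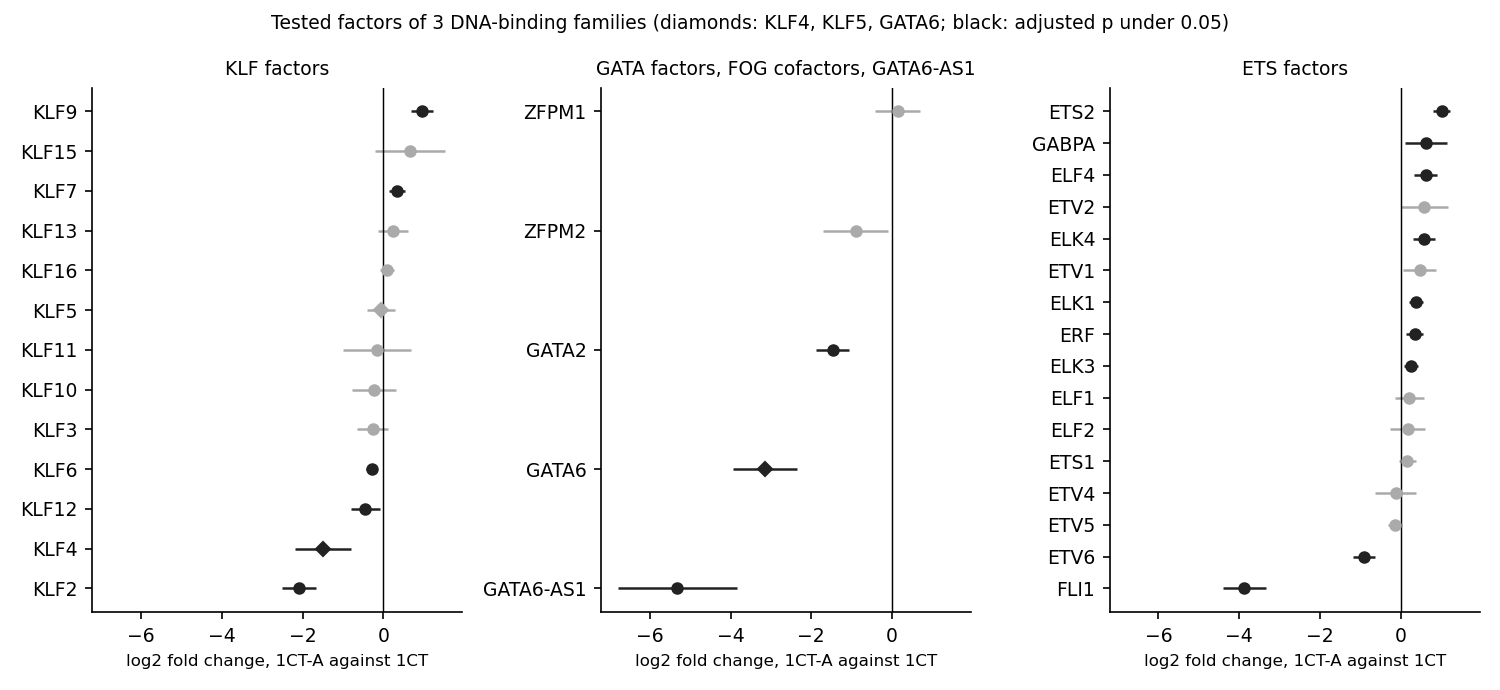
Fitted log2 fold changes (1CT-A against 1CT) for the tested Krüppel-like, GATA and ETS factors, with 95% intervals as lines. Diamonds are KLF4, KLF5 and GATA6, black marks an adjusted p under 0.05 and grey the rest. KLF2, KLF4, GATA2, GATA6 and FLI1 lie furthest to the left among the factors, and the fitted value of GATA6-AS1 depends on a group with 1 count.

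The GATA family has few other visible members. GATA1, the erythroid factor, and GATA5, an endodermal one, have no count in any library. GATA2, a factor of blood stem cells and endothelium, has 14.3, 13.8 and 12.3 CPM in 1CT and 5.56, 5.88 and 3.57 CPM in 1CT-A. All 1CT-A libraries are below all 1CT libraries, and the log2 fold change is -1.47 ± 0.19 (SE; adjusted p = 2.5e-05, edgeR). GATA6 is the only other GATA factor tested, and its call is a description (above). Of all tested genes, 26.0% are called lower. GATA3, a factor of T cells and of several epithelia, has 3, 44 and 6 counts in 1CT and 4, 15 and 12 in 1CT-A, so 1CT replicate 2 alone sets its mean, and it does not pass the filter. It is tested and called lower when 1CT replicate 1 or 3 is left out (log2 fold change -1.83 and -1.69, adjusted p = 0.0331 and 0.0454, edgeR), while without 1CT replicate 2 its log2 fold change is 0.61 (adjusted p = 0.471, edgeR).

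The FOG cofactors, which bind GATA proteins and turn them to repression or activation, are not called. ZFPM1 has a log2 fold change of 0.14 (adjusted p = 0.671, edgeR) and ZFPM2 one of -0.91 (adjusted p = 0.0592, edgeR), which passes without 1CT replicate 2 (adjusted p = 0.0318, edgeR). Of the 6 genes in this list 3 are tested, with a median log2 fold change of -0.91 beside -0.0067 for all genes. That median is the value of ZFPM2. ZFPM2 passed the filter through the 1CT libraries alone, so its values and this median are a description.

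ELF3 belongs to the ETS factors, which share a winged helix that binds GGAA. Of 24 others, 17 are visible in every 1CT library and 16 in every 1CT-A library. Its epithelial relatives ELF5, EHF and SPDEF have no count in any library, and neither has the blood factor SPI1. Of the 16 tested, 7 are called higher and 2 lower, with a median log2 fold change of 0.30. That is 56.25% called, near the 51.0% of all tested genes.

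FLI1, a factor of blood and endothelium, falls from 11.9 ± 1.40 to 0.825 ± 0.278 CPM (SD, n = 3 each; log2 fold change -3.88 ± 0.25 SE, adjusted p = 6.62e-08, edgeR). FLI1 passed the filter through the 1CT libraries, with 1 1CT-A library above about 1.02 CPM, so this call is a description. ETV6, a repressor that blood stem cells need, falls from 22.5 to 12.3 CPM (log2 fold change -0.91, adjusted p = 5.24e-05, edgeR). ETS2, which acts downstream of Ras signaling, rises from 112 ± 16.8 to 231 ± 14.7 CPM (SD, n = 3 each; log2 fold change 1.01 ± 0.10 SE, adjusted p = 2.25e-06, edgeR). The other factors called higher are ELK1, ELK3, ELK4, ELF4, ERF and GABPA, with log2 fold changes of 0.26 in ELK3 to 0.63 in GABPA. The call of GABPA is lost without 1CT replicate 3 or without 1CT-A replicate 2 or 3 (adjusted p up to 0.214), under DESeq2 and with at least 10 counts in every library, and that of ELK3 without 1CT-A replicate 2 (adjusted p = 0.0715).

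Around the CDX and HNF4 factors, 24 other factors were listed, of gut endoderm and absorptive cells, with nuclear receptors such as NR2F1. Of the 24 factors, 12 are visible in no library and 7 have no count at all. The gut factors at 0 include HNF4G, the partner of HNF4A in absorptive cells, and CDX4, PDX1 and ISX. SOX9, a factor of crypt progenitors, has 1, 1 and 0 counts in 1CT and none in 1CT-A. FOXA1, the pioneer factor of endoderm, has 7, 12 and 8 counts in 1CT and 4, 4 and 6 in 1CT-A, and does not pass the filter. Its groups do not overlap in counts.

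Of the 24 factors 9 are visible in every library of either line and 8 are tested, with 5 called higher, and a median log2 fold change of 0.22. The share called is 62.5%, beside 51.0% of all tested genes, and the nuclear receptors NR2F1, NR2F2 and NR2F6 are among the genes called. NR2F1, an orphan nuclear receptor, rises from 220 ± 8.22 to 344 ± 7.98 CPM (SD, n = 3 each; log2 fold change 0.61 ± 0.06 SE, adjusted p = 5.88e-06, edgeR). PRDM1, a repressor that marks the fetal gut, rises from 1.34 to 3.75 CPM (log2 fold change 1.43 ± 0.31 SE, adjusted p = 0.00165, edgeR), and the vitamin D receptor VDR from 11.2 to 17.0 CPM (log2 fold change 0.55 ± 0.14 SE, adjusted p = 0.00573, edgeR). NR2F2 and NR2F6 are called with log2 fold changes of 0.21 and 0.23, and these calls are lost without 4 and 5 of the single libraries in turn, with adjusted p up to 0.143 and 0.114. That of NR2F2 is also lost under 2 of 7 other settings (adjusted p up to 0.0601). One of these is at least 10 counts in every library (adjusted p = 0.0538, edgeR).

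The factors of the secretory cells, to which KLF4 is tied in goblet cells, are mostly not visible. Of 14 in the list, 9 are visible in no library and 7 have no count at all, among them ATOH1, the switch to the secretory fate. PAX6 and FOXP1 are visible in all 6 libraries. FOXP1, a forkhead factor of broad expression, is the 1 that is tested, at 139 CPM in 1CT and 133 CPM in 1CT-A on average, and it is not called.

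**Figure D4:**
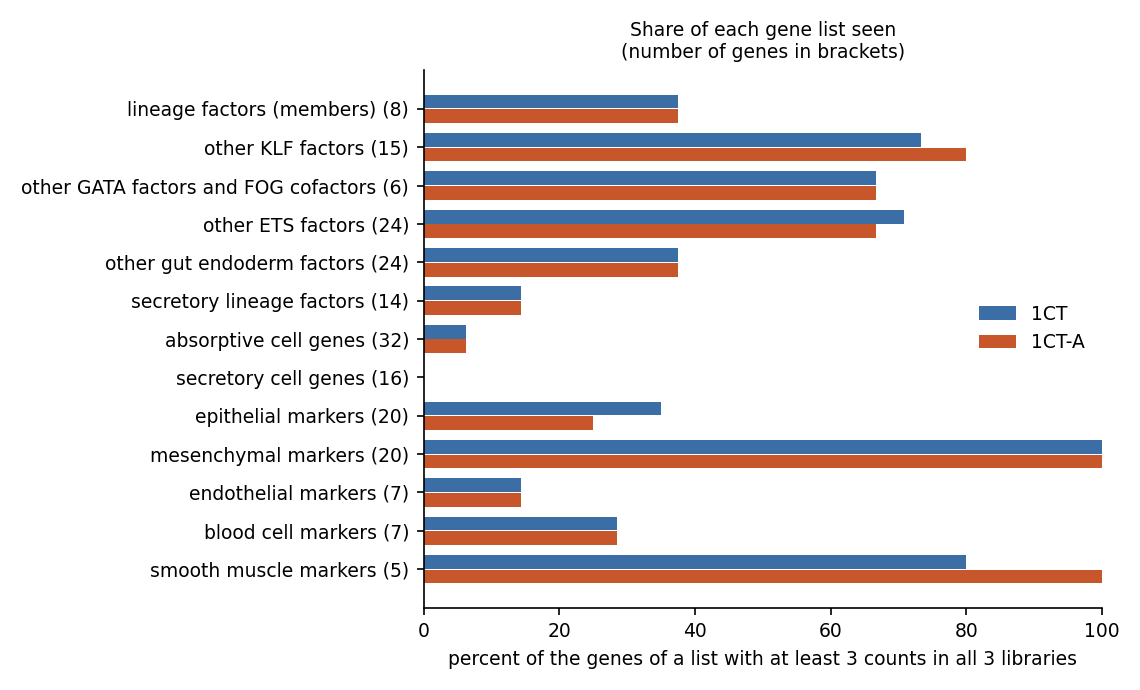
Share of the genes of each list that have at least 3 counts in all 3 libraries of 1CT (blue) or of 1CT-A (orange), in percent, with the number of genes in brackets. All 20 mesenchymal markers are visible in both lines, whereas absorptive and secretory cell genes, the products of mature intestinal epithelium, are nearly all missing.

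The products that these factors are known to turn on are mostly missing as well. Of 32 genes of absorptive cells, 26 are visible in no library and 16 have no count, among them VIL1, FABP1 and SI. Both that are visible in all libraries are brush border peptidases that other cell types also carry. DPP4 rises from 4.06 ± 0.775 to 25.6 ± 3.91 CPM (SD, n = 3 each; log2 fold change 2.61 ± 0.17 SE, adjusted p = 9.46e-08, edgeR). ANPEP is at 19.5 and 15.3 CPM (log2 fold change -0.38, adjusted p = 0.0305, edgeR), a call that is lost without 1CT replicate 1 or 3 or without 1CT-A replicate 2 or 3 (adjusted p up to 0.137) and under DESeq2. Of 16 products of goblet, enteroendocrine and Paneth cells, 14 are visible in no library, and the goblet mucin MUC2 has no count.

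The labelled cell type was set against its defining markers, since the members are factors of epithelium. Of 20 epithelial markers, 7 are visible in every 1CT library and 5 in every 1CT-A library, and 8 are visible in none. EPCAM, CLDN3, GRHL2, OVOL1, OVOL2 and RAB25 have no count in any library, and CDH1 has 4, 3 and 3 counts in 1CT and 0, 0 and 3 in 1CT-A. The 20 markers sum to 78.1 to 87.9 CPM per 1CT library and 39.3 to 45.8 CPM per 1CT-A library. KRT7, a keratin of simple epithelia, falls from 23.5 ± 2.97 to 0.743 ± 0.193 CPM (SD, n = 3 each; log2 fold change -5.01 ± 0.21 SE, adjusted p = 1.74e-09, edgeR), and KRT18 from 11.2 to 5.06 CPM (log2 fold change -1.19, adjusted p = 8.82e-04, edgeR). KRT19 has 20, 27 and 34 counts in 1CT and none in 1CT-A, at least 13.0-fold lower against 3 counts per library.

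CLDN7 is called too (log2 fold change -0.40, adjusted p = 0.0225, edgeR), a call that is lost without 1CT replicate 1 or without 1CT-A replicate 1 or 2 (adjusted p up to 0.107), and ESRP2 is not (log2 fold change -0.17, adjusted p = 0.255, edgeR). Of the 5 epithelial markers tested 4 are thus called lower, with a median log2 fold change of -1.19, that of KRT18, also with KRT19 at its bound. Of all tested genes, 26.0% are called lower. KRT7 and KRT19 passed the filter through the 1CT libraries alone, so the count of 4 is given as a description. The summed epithelial markers move in the same direction as GATA6 and KLF4, and their part in those differences was not tested.

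In contrast, all 20 markers of mesenchymal cells are visible in all 6 libraries. They sum to 45850 to 54077 CPM per 1CT library and 22894 to 24242 CPM per 1CT-A library, most of it FN1, the gene of fibronectin, which falls from 44241 to 18128 CPM (log2 fold change -1.32, edgeR). Without FN1 they sum to 5613 to 6796 and 5155 to 5472 CPM. Of the 20, 7 are called higher and 8 lower, with a median log2 fold change of 0.12. PRRX1, among the 8, passed the filter through the 1CT libraries, with 2 1CT-A libraries above it, so its call is a description. The share called is 75.0%, beside 51.0% of all tested genes. COL3A1, a fibrillar collagen, rises from 47.8 to 253 CPM (log2 fold change 2.37) and TWIST1, a factor of mesenchyme, from 28.8 to 108 CPM (log2 fold change 1.87), while COL1A1, another fibrillar collagen, falls (log2 fold change -0.59). The call of VIM, of the intermediate filament vimentin (log2 fold change -0.20, adjusted p = 0.0386, edgeR), is lost without 5 of the 6 libraries in turn, with adjusted p up to 0.163, and with library size only or no filter (adjusted p up to 0.0905).

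Most markers of endothelium and blood are at or near 0. Of 7 endothelial markers, TEK alone is visible in all libraries and is called lower (log2 fold change -1.49, adjusted p = 0.00355, edgeR), and CDH5, the cadherin of endothelium, has no count. The 7 sum to 3.59 to 7.12 CPM per 1CT library and 1.17 to 2.63 CPM per 1CT-A library. Of 7 blood cell markers, PTPRC, CD3E and SPI1 have no count, and the sum is 12.4 to 15.3 and 8.97 to 10.4 CPM. CD68, which makes up most of it, has a log2 fold change of -0.41 (adjusted p = 0.038, edgeR), a call lost without 1CT replicate 1 or any 1CT-A replicate (adjusted p up to 0.187). It is also lost under DESeq2, with library size only, with no filter and with a replicate block (adjusted p up to 0.0876). The 5 smooth muscle markers sum to 182 to 255 and 173 to 187 CPM, and ACTA2, of smooth muscle actin, is called lower (log2 fold change -1.32, adjusted p = 0.00114, edgeR). The endothelial and blood sums move with GATA6, GATA2, KLF2 and FLI1, the last 3 of which are known from those lineages, and their part was not tested.

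The genes whose pattern over the 6 libraries is most like that of a member were taken as those with the smallest root mean square difference of centred log2(CPM + 1) among genes within 2-fold of its mean CPM. For GATA6 these are DENND2D, with 42, 40 and 28 counts in 1CT and 5, 8 and 12 in 1CT-A, and ATP6V0A4, with 26, 25 and 15 counts and 1 count in each 1CT-A library. Their differences are 0.0964 and 0.104, the smallest of 2180 genes compared. For KLF4 they are C4orf29 (0.0733) and TBC1D22A-AS1 (0.0738) of 1782 genes, and for KLF5 they are JOSD2 (0.0391) and NAT6 (0.0467) of 3310 genes. With so many genes compared over 6 libraries, some are bound to be alike.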

How the data were processed

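The authors deposited 1 table per library with raw counts, whole numbers of reads per gene symbol, not normalized and not pooled. Per the labels, 500 ng of RNA went into each library, made with the QuantSeq kit, which reads the 3′ ends of transcripts. The submitters' processing notes name Bowtie2, edgeR and hg19 without roles or versions, and the counter, annotation and use of strand are not given in the sources used here. The 25737 entries were summed to 24462 symbols, 286 of which are repeated, and CPM is the count per 1000000 counts of the library.

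Counts were fitted with edgeR 4.0.16 in R 4.3.3 (TMM, quasi-likelihood test, filterByExpr with a minimum count of 10, 6 libraries, no covariate), with Benjamini-Hochberg adjustment over 12514 genes and calls at 0.05. The common dispersion is 0.00733. The fit was tested on simulated data, and DESeq2 1.42.0 and limma 3.58.1 are alternatives. Exact permutation tests are two-sided, on CPM. Reads carry no molecular identifiers, so limits and intervals cover counting error only. Gene positions come from GENCODE v44 on GRCh38 and promoter windows from RefSeq on GRCh38.p14, not from the counting.

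Named genes are all 8 members, APC, of each list up to 4 called genes in each direction with the highest mean CPM, any gene counted among 5 or fewer, and the 2 genes most like each tested member. GATA6-AS1 (the nearest relative at the GATA6 start), PRRX1 and some genes at 0 counts were named after their values were seen. The rule for the members uses no measured value, but earlier results of these data were known when the members and the lists were chosen. SPDEF, ERG and SPI1 are in 2 lists each. Some genes of the gut endoderm list are counted with it but not reported here. Alternatives cover normalization, filter, tool, call rule, the limit for a visible gene, a replicate block and leaving out each library.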

Additional observations from a re-analysis of the deposited data

How the results depend on the processing

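No result with a value in the main edgeR fit changed direction from that fit at a called value. GATA3 is not tested there, and with no filter it is called lower (log2 fold change -1.27, adjusted p = 0.00611, edgeR). Without 1CT replicate 2 the log2 fold change of GATA3 is 0.61 (adjusted p = 0.471, edgeR). GATA6 keeps a log2 fold change between -3.33 and -2.90 and KLF4 between -1.56 and -1.34 when each library is left out in turn, KLF5 lies between -0.16 and 0.02, and the 2 member calls remain 2. With at least 10 counts required in every library, members called come to 0, since GATA6 and KLF4 then have no value, and the count is 3 for the other gut endoderm factors and 2 for the epithelial markers, by construction of fewer genes tested. A per-gene two-tailed test on log2(CPM + 1), with a fold of at least 2 and p under 0.01, calls 1127 genes and 1 member, GATA6, and KLF4 differs by -0.84 on that scale. edgeR at those limits calls 1676 genes. With a limit of 10 counts, 1 member in place of 3 is visible in every 1CT-A library.

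All genes called range from 5364 to 6551 with a library left out. The other GATA factors and FOG cofactors called come to 2 with no filter (GATA2 and GATA3) and to 1 to 2 with a library left out, the other gut endoderm factors to 3 to 4, and absorptive cell genes to 1 to 2, and to 1 under DESeq2. Blood cell markers called come to 0 with library size only, under DESeq2 and with a replicate block. The cause of these changes was not tested.

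Deviations of same-numbered libraries correlate at -0.161, 0.220 and -0.139 over 8224 genes. The largest value, 0.345, is that of 1CT replicate 3 with 1CT-A replicate 1. With 3 libraries per line these values cannot decide whether the numbers mark pairs, and the labels do not say so. With the replicate block GATA6 has -3.13, KLF4 -1.48 and KLF5 -0.06, and 6091 genes are called, 6000 of them also without it. Depth limits the 5 members under 3 counts, for which no difference could be tested.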

Other observations

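A few relatives of the members vary more between libraries of 1 line than the members do. KLF10, an early response gene to TGF-β, has 372, 271 and 125 counts in the 3 1CT libraries, or 44.01, 32.7 and 16.0 CPM, and 21.5, 30.2 and 29.7 CPM in 1CT-A. Its groups overlap, and it is called lower when 1CT replicate 3 is left out (log2 fold change -0.52, adjusted p = 0.00497, edgeR). KLF15, a metabolic factor that glucocorticoid induces, has 0.710, 4.59 and 2.44 CPM in 1CT and 4.84, 3.77 and 3.97 CPM in 1CT-A. The log2 fold change of KLF15 is 0.66 (adjusted p = 0.189, edgeR) and becomes 1.39 without 1CT replicate 2 (adjusted p = 0.0119, edgeR). KLF10 and KLF15 were named after their values were seen.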
